A study of Mus musculus with 8 samples.

Results

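Complement and coagulation genes were read in liver tissue from 8 female, calorie-restricted Ames dwarfs. The set holds 41 genes, which encode components and inhibitors of both cascades, among them 2 complement receptors. A gene was represented by the brightest of the probe sets annotated with its symbol alone. By that rule 34 of the 41 genes could be read, out of 8251 genes on the array, and C3, C4b, C6, C8a, C8b, Cfd and F11 were not analysed here. Of the 34 genes, 30 had a mean intensity of at least 165.2 over the 8 mice, the median of all values, and were tested with 6265 probe sets of 4869 genes. Cfb, C3ar1, F3 and F8 were dimmer and were left out of these tests, and they were fitted only in an alternative with no filter on brightness.

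The mice were homozygous for the Ames dwarf mutation (df/df), had free access to water and were fed 30% less of a standard pelleted diet than female df/df mice fed without restriction. Their age at death was 24 to 26 months, and total RNA of each liver was hybridised to a separate oligonucleotide array (Affymetrix U74Av2). The mutation stops the development of several pituitary cell types, so that growth hormone, prolactin and thyrotropin are missing. All 8 mice form 1 group, so that each comparison below is between individual mice and none measures the diet or the mutation. Whole liver was measured, so fewer cells of a type and less RNA per cell cannot be told apart.

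Hepatocytes make most of the complement and coagulation proteins of blood plasma. Complement is a cascade of proteases that tags microbes and damaged cells, recruits leukocytes and ends in a membrane pore, and coagulation is a cascade of proteases that ends in a fibrin clot. Both are held in check by protease inhibitors, and several of their genes are induced in the liver by interleukin 6, interleukin 1 or interferon during inflammation.

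Between the mice these genes differed little. Among the 30 tested genes the median ratio of the highest to the lowest mouse was 1.44, against 1.61 over all 4869 tested genes. The ratio stayed under 2 in 28 of the 30 genes (93.3%) and in 76.6% of all tested genes. The exceptions were C9, the pore-forming last component of complement, with a ratio of 2.68, and Fga, the fibrinogen alpha chain, with a ratio of 2.48. The SD on the log2 scale had a median of 0.18 in the 30 genes and 0.23 in all tested genes, and 1 of the 30 genes (3.33%) exceeded the 90th percentile of all genes, 0.50. These ratios and SDs were compared with bright and dim genes alike, so a difference in brightness may account for part of the gap. Each variance over mice was also set against the variance usual at that brightness in a one-sided F test (limma, Benjamini-Hochberg adjustment over all 6265 probe sets). There 0 of the 30 genes passed, against 0% of all probe sets. The usual variance was itself estimated from these probe sets, and the lowest adjusted p of any of them in the F test was 0.265. A test in which no probe set passes cannot tell these genes from others. At an unadjusted p under 0.05 only C9 was marked (p = 0.0427), against 6.38% of all probe sets, and a chi-square test that takes the trend with brightness as known marked C9 and Fga at adjusted p = 2.93e-07 and 0.0136, against 18.3% of all probe sets.

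**Figure D1:**
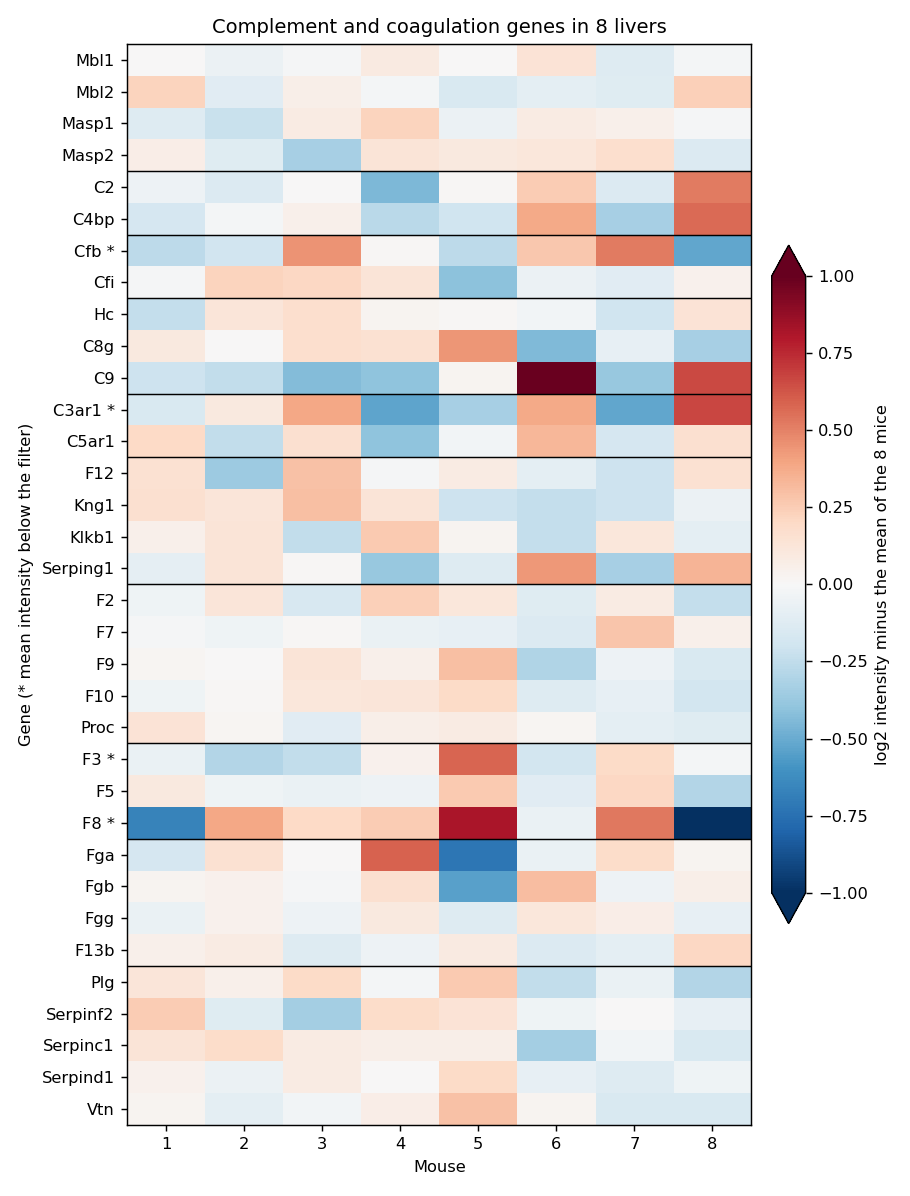
Log2 intensity of 34 complement and coagulation genes (rows, in the order lectin pathway, classical pathway, alternative pathway, terminal complex, receptors, contact system, vitamin K dependent proteases, cofactors, fibrin, and fibrinolysis with inhibitors, separated by lines) in mice 1 to 8 (columns), centred on the mean of that gene. C9 was highest in mouse 6 and mouse 8, Fga and Fgb were lowest in mouse 5, and F8 was lowest in mouse 8.

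The arrays differed in ways that bear on single mice. The ratio of the 5' to the 3' control probe set of Gapdh was 0.375 in mouse 5, while the remaining mice had 0.937 to 1.26. That of pyruvate carboxylase (Pcx) was 0.0246 in mouse 5, while the remaining mice had 0.109 to 0.379. For Actb the ratio in mouse 5, 0.627, lay inside the range of the other mice (0.5 to 0.69). Both Actb signals were nevertheless lowest in mouse 5. The 5' signal was 478 there and 1487 to 8323 in the others, and the 3' signal was 763 and 2427 to 12065. Mouse 5 also had the lowest array median (145.6). Mouse 5 was the highest mouse in 7 of the 30 tested genes (23.3%) and the lowest in 5 (16.7%), against 20.8% and 21% of all tested genes. The livers also differed in inflammation genes. A score of 19 interferon response genes (the mean over genes of the log2 intensity minus each gene's mean) was -0.16, 0, 0.81, -1.46, -1.37, 2.09, -1.51 and 1.61 in mice 1 to 8. A score of 16 acute phase genes ran from -0.81 in mouse 7 to 0.89 in mouse 8, and a score of 14 macrophage genes from -0.87 in mouse 4 to 1.72 in mouse 6. Not every gene followed its score. The acute phase gene Hamp was lowest in mouse 6 (10696) and mouse 8 (13312) and highest in mouse 4 (24152). The macrophage gene Clec4f read 747 in mouse 8 and was highest in mouse 2 (1362). The intensities summed over the macrophage genes with a probe set (17 of 19) ranged from 5821 in mouse 4 to 37752 in mouse 6, and summed over 9 of 12 hepatocyte markers from 114284 in mouse 6 to 164402 in mouse 3, with albumin (Alb) at 23417 in mouse 6 and 35343 in mouse 3. The interferon-induced GTPase gene Iigp1 spanned 839 in mouse 7 to 15220 in mouse 6. The 3 inflammation scores ordered the mice almost alike (r = 0.934 between the interferon and acute phase scores, r = 0.955 between the interferon and macrophage scores and r = 0.861 between the acute phase and macrophage scores, n = 8), so what follows one of them cannot be told apart from what follows another.

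The lists of genes behind these scores hold no complement or coagulation gene of the set. Each tested probe set was regressed on each score with limma, and p-values were adjusted over all tested probe sets outside the score. On the interferon score C4bp and Serping1 passed, both with positive slopes, which is 2 of 30 genes (6.67%) against 8.09% of all probe sets, 5.06% higher and 3.03% lower. On the macrophage score C4bp, C9 and Serping1 passed, again with positive slopes, 3 of 30 against 8.29% (5.28% higher and 3.01% lower). On the acute phase score C4bp alone passed, 1 of 30 against 4.66% (3.31% higher and 1.34% lower). The shares of called genes were near those of all probe sets, so they are no result about the set. The median slope of the 30 genes on the interferon score was -0.01 log2 units per unit of score, and that of all probe sets was -0.01. At an unadjusted p under 0.05 the interferon score marked 9 of the 30 genes (5 higher and 4 lower), against 23.2% of all probe sets, the acute phase score 8 (5 and 3) against 19.7%, and the macrophage score 12 (5 and 7) against 23.5%.

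**Figure D2:**
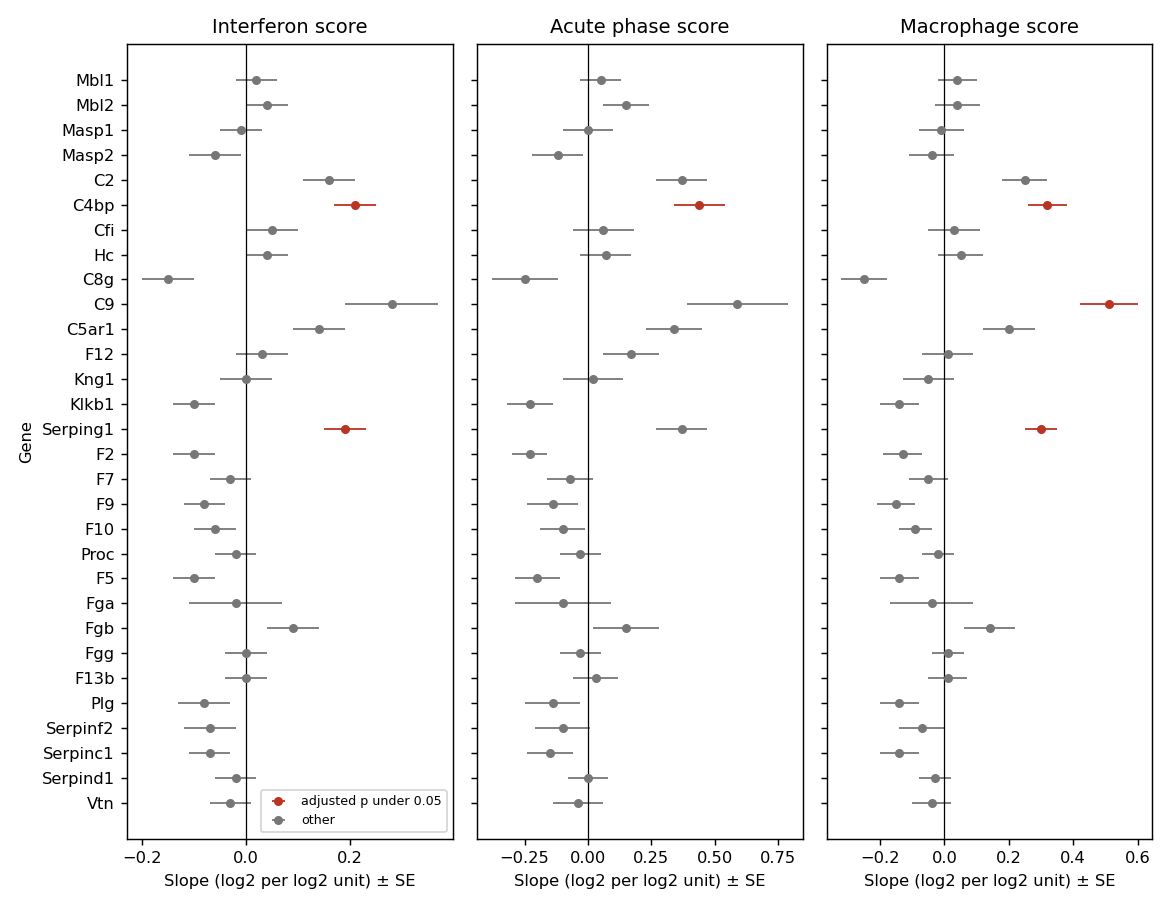
Slope of log2 intensity on the interferon, acute phase and macrophage scores (x axes, log2 units per log2 unit of score, each panel with its own scale) for the 30 tested genes (rows). Points are limma estimates over 8 mice, bars are 1 SE, and red marks an adjusted p under 0.05: C4bp and Serping1 on the interferon score, C4bp on the acute phase score, and C4bp, C9 and Serping1 on the macrophage score.

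Of the classical pathway, C4bp and C2 could be read. C4bp encodes the alpha chain of C4b-binding protein, which halts the classical and lectin pathways by binding C4b and serving as a cofactor for its cleavage. Its intensity (probe set 102799_at) was 5595 ± 1335 (SD, n = 8), with a low of 4353 in mouse 7, a median of 5121, 7100 in mouse 6 and a high of 8097 in mouse 8. The mice with the 3 lowest interferon scores (4, 5 and 7) were also the 3 lowest for C4bp, and the highest values were in mouse 8 and mouse 6. The slope on the interferon score was 0.21 ± 0.04 (SE, adjusted p = 0.00876, limma), on the acute phase score 0.44 ± 0.10 (adjusted p = 0.0323) and on the macrophage score 0.32 ± 0.06 (adjusted p = 0.00735). With the interferon score Pearson's r was 0.929 (exact permutation p = 0.000769, adjusted over all probe sets 0.0295) and Spearman's rho was 0.976 (exact permutation p = 0.000397, adjusted 0.0604), and r was 0.929 over the 6 mice left without mouse 6 and mouse 8. The slope over those 6 mice was 0.14 with an adjusted p of 0.543 (0.39 and 0.672 on the macrophage score), and without mouse 6 alone it was 0.23 with an adjusted p of 0.0563. For C4bp r was 0.89 with the acute phase score and 0.926 with the macrophage score. The exact permutation p for these, adjusted over all probe sets, was 0.0875 and 0.0602 and did not pass. By that test 0 of all probe sets passed on the acute phase score. There the limma call for C4bp was lost without mouse 4, 6, 7 or 8 (adjusted p = 0.0952, 0.127, 0.0832 and 0.21) and with the arrays scaled to a common median (0.113).

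C2, the serine protease of the classical and lectin C3 convertase, had an intensity of 2397 ± 498 (SD, n = 8), with 1721 in mouse 4, a median of 2319 and 3379 in mouse 8. As with C4bp its highest values were in mouse 8 and mouse 6 (2798), but its slope on the interferon score, 0.16 ± 0.05, did not pass (adjusted p = 0.0745, limma), nor did those on the acute phase score (0.37 ± 0.10, adjusted p = 0.0748) and the macrophage score (0.25 ± 0.07, adjusted p = 0.0686). C2 passed without mouse 5 on the interferon and macrophage scores (adjusted p = 0.0411 and 0.0435) and after quantile normalization on the acute phase and macrophage scores (adjusted p = 0.0413 and 0.0482). Cfb, the protease of the alternative pathway convertase that is a relative and chromosomal neighbour of C2, was too dim to test, at 164 ± 43.0, and was lowest in mouse 8 (110) and highest in mouse 7 (227). Its other probe set averaged 143 and correlated with the brighter one at r = 0.408 over the 8 mice. Cfi, the protease that cleaves C3b and C4b, was 8261 ± 1107 and spanned 1.54-fold (6174 in mouse 5, 9513 in mouse 2).

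Of the terminal components, which assemble into the membrane pore, C9, Hc and C8g could be read. C9 (probe set 104424_at) was 2031 ± 876 (SD, n = 8), the widest relative spread of the tested genes of the set. It read 3770 in mouse 6 and 2996 in mouse 8, against a median of 1619 and at most 1936 in the other 6 mice, the lowest being 1409 in mouse 3. Its slope on the macrophage score was 0.51 ± 0.09 (SE, adjusted p = 0.00605, limma), with r = 0.891 (exact permutation p = 0.0109, adjusted over all probe sets 0.107) and rho = 0.619 (exact permutation p = 0.115). That slope rested on mouse 6 and mouse 8: without both it was -0.10 (adjusted p = 0.941), with r = -0.0571 over the other 6 mice, and without mouse 6 alone it was 0.47 (adjusted p = 0.184). With no filter on brightness it was 0.56 (adjusted p = 0.0537). On the interferon score the slope of C9 was 0.28 ± 0.09 (adjusted p = 0.0748), which passed without mouse 3 (0.33, adjusted p = 0.0132) or mouse 5 (0.34, adjusted p = 0.0413). The difference between the scores was not tested. C8g, the lipocalin-like chain of C8, was lowest in those same mice, with 4942 in mouse 6 and 5323 in mouse 8, a median of 6954 and 9086 in mouse 5, and a slope on the macrophage score of -0.25 ± 0.07 (adjusted p = 0.0581), which passed without mouse 7 (adjusted p = 0.0184). Hc, which encodes C5, the source of the chemoattractant C5a and the starting point of the pore, ranged 1.33-fold around 3732 ± 381.

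The promoters of the called genes C4bp and C9 (250 bases before to 50 after the annotated start of transcription, RefSeq, GRCm38.p6) are shown because both genes passed a slope test. They lie at chr1:130661569-130661868 (minus strand) and at chr15:6445096-6445395 (plus strand), and capitals mark matches to any of 6 motifs searched on both strands.
C4bp: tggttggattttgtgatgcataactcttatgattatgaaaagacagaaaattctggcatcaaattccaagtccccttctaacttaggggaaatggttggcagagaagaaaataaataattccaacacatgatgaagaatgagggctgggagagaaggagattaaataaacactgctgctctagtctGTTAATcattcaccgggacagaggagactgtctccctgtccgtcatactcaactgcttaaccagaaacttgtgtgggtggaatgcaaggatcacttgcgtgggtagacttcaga
C9: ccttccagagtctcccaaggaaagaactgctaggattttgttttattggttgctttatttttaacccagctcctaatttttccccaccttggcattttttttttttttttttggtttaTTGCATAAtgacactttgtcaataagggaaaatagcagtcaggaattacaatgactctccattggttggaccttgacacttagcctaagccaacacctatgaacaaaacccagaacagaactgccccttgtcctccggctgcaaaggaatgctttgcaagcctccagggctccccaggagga
The motifs were an interferon response element (GAAA, any 2 bases, then GAAA, in 3.44% of 32851 promoter windows), a STAT site (TTCNNNGAA, 8.3%), an NF-kB site (GGGA, any base, then TTTCC, 0.411%), the interleukin 6 response motif (CTGGGAA, 11.1%), an HNF1 motif (GTTAAT, 7.1%) and a C/EBP site (TTGCNNAA, 10.8%). The C4bp window held 1 match, an HNF1 motif 64 bases before the start, and the C9 window held 1 match, a C/EBP site 132 bases before it. Among the 26 genes of the set with a promoter in the RefSeq table, 1 held the interferon element (Vtn), 5 the STAT motif, 0 the NF-kB motif, 5 the interleukin 6 motif, 7 the HNF1 motif and 6 the C/EBP motif. A match here describes the letters of the window and is no evidence of binding.

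The contact system starts coagulation on charged surfaces and releases bradykinin. Serping1, the inhibitor that stops plasma kallikrein, factor XIIa and the first proteases of the complement pathways, had an intensity of 8989 ± 1842 (SD, n = 8, probe set 99081_at), with 6805 in mouse 4, a median of 8606, 11176 in mouse 8 and 11924 in mouse 6. The order of the mice by Serping1 was the same as that by the macrophage score (rho = 1, exact permutation p = 4.96e-05, adjusted over all probe sets 0.0775), with r = 0.955 (exact permutation p = 2.48e-05, the smallest the pairings can give, adjusted 0.0282) and r = 0.934 without mouse 6 and mouse 8. The slope was 0.30 ± 0.05 on the macrophage score (SE, adjusted p = 0.00494, limma), 0.19 ± 0.04 on the interferon score (adjusted p = 0.0102) and 0.37 ± 0.10 on the acute phase score (adjusted p = 0.0702, but 0.0238 after quantile normalization and 0.0419 without mouse 2). On the interferon score the adjusted p was 0.0964 without mouse 6, 0.0554 without mouse 8, 0.532 without both and 0.0624 with the arrays scaled to a common median, at slopes of 0.16 to 0.19, where the slope with all 8 mice was 0.19. On the macrophage score the slope was 0.38 without mouse 6 (adjusted p = 0.0638), 0.50 without both mice (adjusted p = 0.564) and 0.25 with a common median (adjusted p = 0.0522).

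None of the other 3 contact system genes passed on any score. F12, factor XII, spanned 1.56-fold around 3114 ± 448, with its minimum in mouse 2 (2412) and its maximum in mouse 3 (3772). Kng1, the kininogen that carries bradykinin, ranged 1.46-fold around 18536 ± 2644. Klkb1, plasma prekallikrein, was lowest in mouse 3 (978) and mouse 6 (986) and highest in mouse 4 (1390), around a median of 1195. Its slope on the interferon score was -0.10 ± 0.04 and did not pass (adjusted p = 0.134, limma), although it did with the arrays scaled to a common median (adjusted p = 0.0386). Kng1 and Klkb1, precursor and releasing protease, showed no detectable correlation over the mice (r = 0.0534, exact permutation p = 0.89, adjusted p over 11 pairs 0.979; rho = 0.0952, exact permutation p = 0.84).

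**Figure D3:**
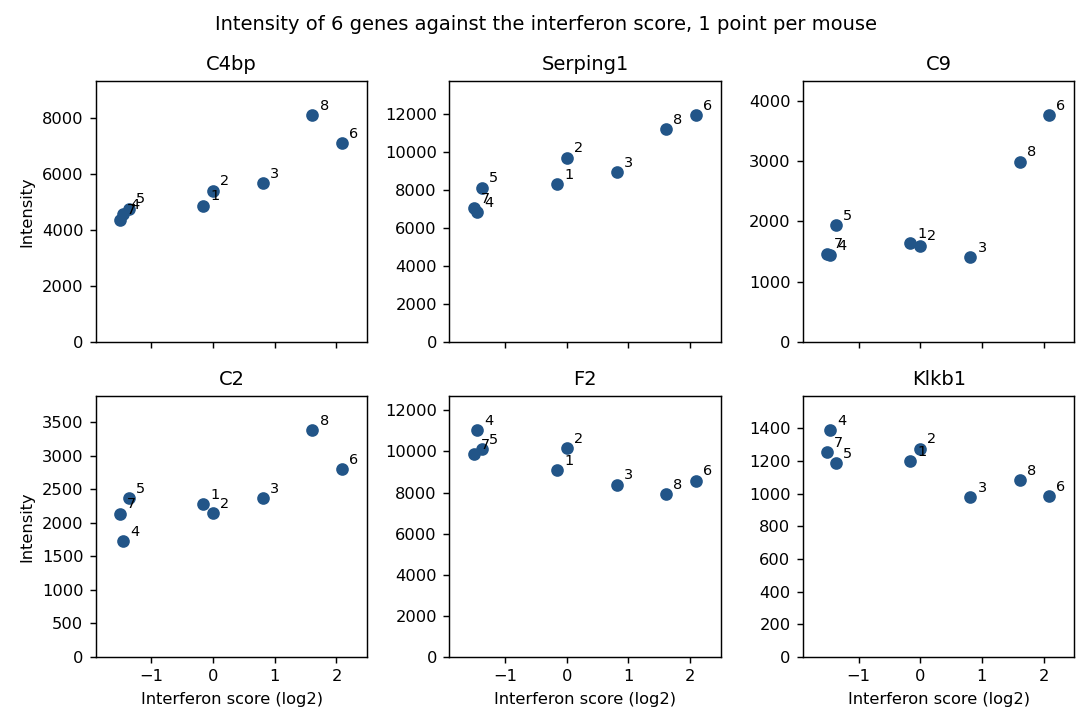
Intensity (y axes, linear and starting at 0) of C4bp, Serping1, C9, C2, F2 and Klkb1 against the interferon score (x axes, log2), 1 numbered point for each of 8 mice. C4bp and Serping1 were highest in mice 6 and 8 and low in mice 4, 5 and 7, while C9 in mice 6 and 8 lay above every other mouse.

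The 4 lectin pathway genes all ranged less than the median of the set, 1.44-fold. Mbl1 and Mbl2, the mannose-binding lectins that recognise microbial sugars, were 642 ± 37.0 and 2531 ± 280 (SD, n = 8) and ranged 1.20-fold and 1.31-fold. Masp1 and Masp2, the proteases they carry, were 892 ± 84.7 and 1652 ± 189 and ranged 1.36-fold and 1.41-fold. None of the 4 passed the test on any score (for the interferon score the slopes lay between -0.06 and 0.04). No correlation over the mice was detected between the lectins (r = -0.00752, exact permutation p = 0.984, adjusted p over 11 pairs 0.984; rho = 0.19) or between Masp1 and Masp2 (r = 0.192, exact permutation p = 0.644, adjusted p 0.886; rho = 0.262).

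The receptors for the complement fragments C3a and C5a are carried mainly by myeloid cells. C3ar1 was dim, at 134 ± 42.3 (SD, n = 8), with 89.3 in mouse 4 and 89.6 in mouse 7 at the low end and 204 in mouse 8 at the high end. With no filter on brightness (12422 probe sets tested) its slope on the interferon score was 0.30 ± 0.04 (adjusted p = 0.0279, limma, r = 0.941), and on the macrophage score 0.45 ± 0.11 (adjusted p = 0.0991). C5ar1 was 364 ± 62.2, from 273 in mouse 4 to 452 in mouse 6, and its slopes on the interferon score (0.14 ± 0.05, adjusted p = 0.144) and the macrophage score (0.20 ± 0.08, adjusted p = 0.184) did not pass. The macrophage genes summed to 5821 in mouse 4 and 37752 in mouse 6, and their part in the receptor values was not tested.

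Of the vitamin K dependent proteases all 5 were tested and none passed a slope test. F2 (prothrombin) was 9388 ± 1070 (SD, n = 8), with 7913 in mouse 8, a median of 9465 and 11040 in mouse 4. The mice with the 3 highest interferon scores (3, 6 and 8) were the 3 lowest for F2. Its slope on the interferon score was -0.10 ± 0.04 (adjusted p = 0.117, limma) and on the acute phase score -0.23 ± 0.07 (adjusted p = 0.111), with r = -0.918 on the acute phase score (exact permutation p = 0.00365, adjusted over all probe sets 0.101; rho = -0.81, exact permutation p = 0.0218; r = -0.852 without mouse 6 and mouse 8). F7, which starts coagulation together with tissue factor, was 3189 ± 296 and reached 3852 in mouse 7, with 2877 to 3298 elsewhere. On the second F7 probe set mouse 7 (2555) did not stand apart, the range was 2022 to 2770, and the 2 probe sets correlated at r = 0.335. Proc, protein C, which inactivates factors Va and VIIIa, ranged 1.19-fold around 8301 ± 559.

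F9 and F10, successive proteases of the cascade (factor IX activates factor X), varied together. F9 was 3126 ± 391 (SD, n = 8), with 2529 in mouse 6, a median of 3126 and 3832 in mouse 5, and F10 was 4218 ± 375, with 3721 in mouse 8, a median of 4160 and 4783 in mouse 5. Both were highest in mouse 5, and mouse 6 and mouse 8 were the 2 lowest for each. Of 22 pairs of genes planned for comparison, 11 had both genes tested, and this was the 1 pair that passed (r = 0.895, exact permutation p = 0.00166, adjusted p over 11 pairs 0.0183; rho = 0.929, exact permutation p = 0.00223, adjusted p 0.0246; r = 0.92 without mouse 5 and mouse 6). The second F10 probe set, which averaged 523, correlated with the brighter one at r = 0.12, and with both averaged the F9 and F10 correlation was 0.426 (adjusted p = 0.633). Without mouse 5, whose 5' signal of Gapdh was low, it was 0.835 (adjusted p = 0.219). The call also ended without mouse 2 (0.895, adjusted p = 0.0548), without mouse 3 (0.884, adjusted p = 0.0655) and after quantile normalization (0.795, adjusted p = 0.0802).

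**Figure D4:**
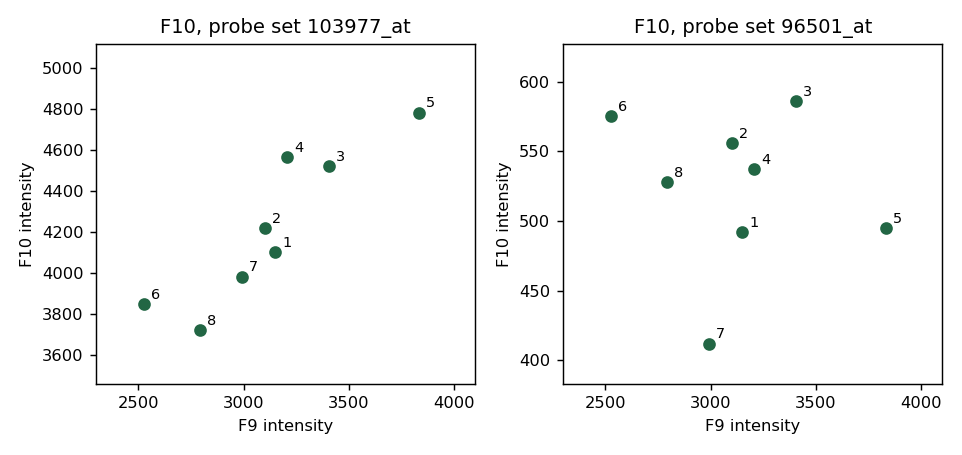
Intensity of F10 (y axes, not starting at 0) against F9 (x axes, not starting at 0) in 8 mice (numbered points), with F10 read from its brighter probe set on the left and its dimmer probe set on the right. The left panel shows the correlation of 0.895 (on the log2 scale), and on the right mouse 6, the lowest for F9, is among the highest for F10.

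The promoters of F9 and F10 are shown because these genes formed the 1 pair that passed. Their windows (RefSeq, GRCm38.p6, 250 bases before to 50 after the annotated start) lie at chrX:59999214-59999513 (plus strand) and chr8:13037058-13037357 (plus strand), and capitals mark matches to the same 6 motifs.
F9: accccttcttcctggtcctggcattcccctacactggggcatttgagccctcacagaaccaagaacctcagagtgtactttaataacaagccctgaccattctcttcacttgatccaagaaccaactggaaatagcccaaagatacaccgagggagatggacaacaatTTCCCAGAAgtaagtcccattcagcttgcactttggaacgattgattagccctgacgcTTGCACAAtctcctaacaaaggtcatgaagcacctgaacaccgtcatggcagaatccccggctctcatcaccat
F10: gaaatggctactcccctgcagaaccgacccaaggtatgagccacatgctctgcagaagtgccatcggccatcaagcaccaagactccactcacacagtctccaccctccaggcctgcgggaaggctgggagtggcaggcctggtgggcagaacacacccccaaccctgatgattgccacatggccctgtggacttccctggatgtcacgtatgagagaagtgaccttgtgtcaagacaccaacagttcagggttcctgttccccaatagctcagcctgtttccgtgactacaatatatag
The F9 window held an overlapping pair of matches, the STAT and interleukin 6 motifs 82 bases before the start, and a C/EBP motif 24 bases before it. The F10 window held 0 matches, and the windows thus share none of these 6 motifs.

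Among the cofactors, F5 (factor V, which speeds the activation of prothrombin) ranged 1.47-fold around 5313 ± 668, with 4301 in mouse 8, a median of 5118 and 6312 in mouse 5. Its slope on the interferon score was -0.10 ± 0.04 (adjusted p = 0.15, limma). F8, factor VIII, which in liver is made by sinusoidal endothelial cells, was dim, with 38.7 in mouse 8, a median of 122 and 184 in mouse 5, a 4.77-fold range. With no filter its slope on the interferon score was -0.32 ± 0.16 (adjusted p = 0.451, limma). Of 10 endothelial markers 9 had a probe set, and their summed intensity was also lowest in mouse 8 (2080) and was highest in mouse 4 (4118). Kdr and Vwf read 139 and 24.8 in mouse 8, the lowest of the 8 mice for each, and Tek, Tie1, Eng and Emcn were also lowest there. Cdh5, Pecam1 and Lyve1 were not (291, 99.3 and 67.2 in mouse 8). Their lowest values were 231 in mouse 3, 86.2 in mouse 3 and 43 in mouse 1. Eng read 1249 in mouse 8 and 1263 in mouse 1, so it barely set mouse 8 apart. Vwf, Tek, Emcn, Pecam1 and Lyve1 were below the filter. In mouse 8 the values of Vwf, Tek (36.4) and Emcn (26.7) lay under the floor of 37.2 set before fitting. F8 in mouse 8 lay just above that floor. The part of endothelial RNA in the F8 values was not tested. F3, tissue factor, read between 94.7 in mouse 2 and 173 in mouse 5 and was likewise below the filter.

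The fibrinogen chains, 3 polypeptides that are secreted as 1 molecule and cleaved by thrombin into fibrin, lie side by side on chromosome 3 in mouse, with promoter windows starting at 83007474 (Fgg), 83025903 (Fga) and 83049814 (Fgb) in GRCm38.p6. Fga was 5096 ± 1256 (SD, n = 8), with 3020 in mouse 5, a median of 5015 and 7474 in mouse 4. Fgb was 8974 ± 1402, with 6095 in mouse 5, a median of 9094 and 11028 in mouse 6. Fgg was 8025 ± 503, with 7326 in mouse 5, a median of 7999 and 8672 in mouse 6. All 3 chains were thus lowest in mouse 5, the mouse with the low 5'/3' ratios of Gapdh and Pcx, and the part of RNA ends in these values was not tested. The ranges differed between the chains, from 1.18-fold for Fgg to 2.48-fold for Fga.

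The correlation over the 8 mice was 0.713 between Fga and Fgb, 0.719 between Fga and Fgg and 0.723 between Fgb and Fgg (exact permutation p = 0.068, 0.0249 and 0.0165), with adjusted p-values over 11 pairs of 0.187, 0.0911 and 0.091 and rho of 0.31, 0.548 and 0.595 (exact permutation p = 0.462, 0.171 and 0.132). It depended on which mice were kept. Without mouse 4 and mouse 5 it was -0.422 for Fga and Fgb and 0.364 for Fga and Fgg, and without mouse 5 and mouse 6 it was 0.258 for Fgb and Fgg. Without mouse 6 the correlation of Fga and Fgg was 0.882 (exact permutation, adjusted p = 0.0142), without mice 6 and 8 it was 0.937 (adjusted p = 0.0167) and that of Fga and Fgb was 0.892 (adjusted p = 0.1). Without mouse 7 that of Fgb and Fgg was 0.791 (exact permutation, adjusted p = 0.0295). None of the chains, which are induced by interleukin 6 in acute inflammation, passed on the acute phase score. Their slopes there were -0.10 ± 0.19 for Fga, 0.15 ± 0.13 for Fgb and -0.03 ± 0.08 for Fgg (SE, adjusted p = 0.838, 0.575 and 0.893, limma). The same score was 0.89 in mouse 8, 0.73 in mouse 6 and -0.81 in mouse 7, in which Fgb read 9226, 11028 and 8538. F13b, the carrier subunit of the transglutaminase that crosslinks fibrin, ranged 1.27-fold around 2658 ± 231.

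Plg, the precursor of the fibrin-cleaving protease plasmin, gave different patterns on its 2 probe sets. The brighter one (161626_f_at), whose suffix marks probes shared within a gene family, was 25254 ± 3403 (SD, n = 8), with 20512 in mouse 8, a median of 25355 and 30052 in mouse 5. The other (101985_at) read 1606 in mouse 5 and between 10353 in mouse 6 and 18657 in mouse 1 in the rest, an 11.6-fold range. Mouse 5 was thus the highest on one and the lowest on the other, and the probe sets correlated at r = -0.384 over the 8 mice. Among the inhibitors, Serpinc1 (antithrombin) read 9366 in mouse 6, a median of 12343 and 13359 in mouse 2, Serpind1 (heparin cofactor II) ranged 1.25-fold around 8698 ± 623, and Serpinf2 (alpha-2-antiplasmin) ranged 1.5-fold around 7277 ± 929. Vtn, vitronectin, which binds and stabilises the plasminogen activator inhibitor and also blocks the complement pore, ranged 1.36-fold around 11100 ± 1168. None of these 5 genes passed on any of the 3 scores, and on their brightest probe sets the slopes on the interferon score lay between -0.08 and -0.02. The other Plg probe set had the opposite sign, with 0.23 ± 0.27 on the interferon score (adjusted p = 0.696, limma). Its slopes were 0.34 ± 0.59 on the acute phase score and 0.19 ± 0.44 on the macrophage score (adjusted p = 0.831 and 0.859, limma).

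**Figure D5:**
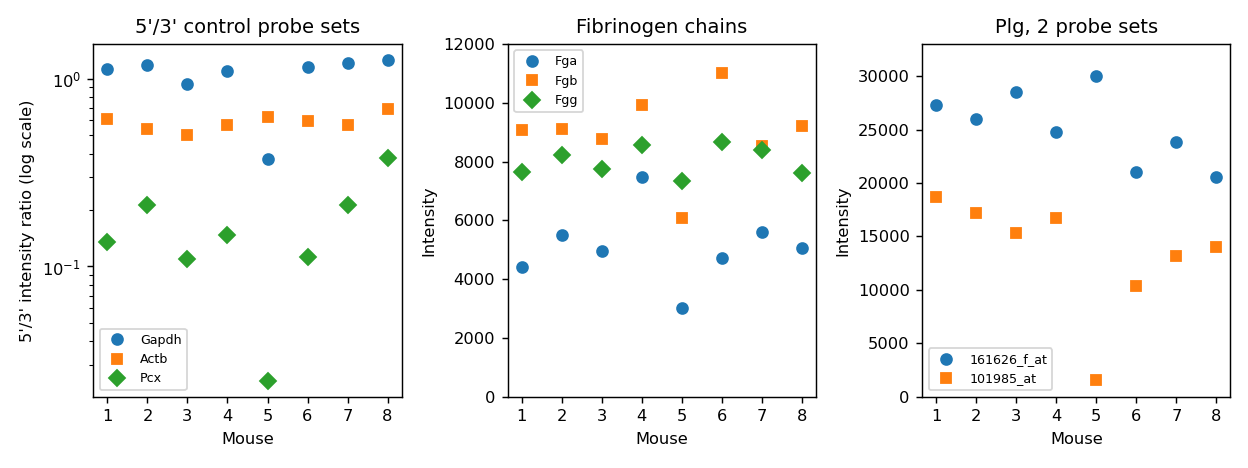
Left, ratio of 5' to 3' intensity (log axis) for the control transcripts Gapdh, Actb and Pcx in mice 1 to 8. Centre and right, intensity (linear axes from 0) of the fibrinogen chains and of 2 Plg probe sets in the same mice. Mouse 5 had the lowest ratio for Gapdh and Pcx, the lowest value of each fibrinogen chain, and the lowest value on 1 Plg probe set and the highest on the other.

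Other genes of the same systems were read from lists made alongside the set. Of 13 tested complement genes outside it (32 listed), 8 passed on the interferon score, all with positive slopes, and of 16 tested coagulation genes (38 listed) 3 passed with positive slopes and 1 with a negative slope, against 5.06% of all probe sets higher and 3.03% lower. The complement genes were the 3 chains of C1q, which macrophages make, the properdin gene Cfp, the integrin genes Itgb2 and Itgax, the receptor gene Cd93 and C1ra, a protease of the first complement complex. C1qa read 240 in mouse 5 and 3656 in mouse 6 with a slope of 0.73 ± 0.14 (adjusted p = 0.0123, limma), C1qb 345 in mouse 7 and 2447 in mouse 6 (0.64 ± 0.09, adjusted p = 0.00163), and C1qc 818 in mouse 4 and 4579 in mouse 6 (0.49 ± 0.08, adjusted p = 0.00464). C1ra, whose product is inhibited by that of Serping1, spanned 1.66-fold (1092 in mouse 7, 1811 in mouse 6) with a slope of 0.18 ± 0.04 (adjusted p = 0.0188). Cfp ranged 5.98-fold (0.57 ± 0.08), Itgax 2.45-fold (0.36 ± 0.06) and Cd93 6.86-fold (0.66 ± 0.11). Itgb2 read 1017 in mouse 6 and 26.4 in mouse 5, a value under the floor of 37.2 that was set before fitting, and its slope was 1.05 ± 0.15.

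Of the coagulation list, Fgl2, a membrane prothrombinase of activated macrophages, spanned 11.8-fold (88.2 in mouse 5, 1040 in mouse 6) with a slope of 0.88 ± 0.09 (SE, adjusted p = 0.000417, limma). The annexin gene Anxa5, whose product binds membrane phospholipid and is anticoagulant, ranged 3.92-fold (0.40 ± 0.08, adjusted p = 0.012). Pros1, protein S, the cofactor of protein C, ranged 1.47-fold (0.15 ± 0.04, adjusted p = 0.0474), and Mcfd2, which helps to export factors V and VIII from the endoplasmic reticulum, ranged 1.69-fold with a negative slope (-0.15 ± 0.04, adjusted p = 0.0475). Pros1 and Mcfd2 were named after their values were seen, and of 17 alternatives Pros1 passed in 2 and Mcfd2 in 5. Without mouse 6 and mouse 8, 9 of these 12 genes stayed above the filter and had adjusted p-values between 0.237 and 0.692 (limma), while Fgl2, Itgb2 and Cd93 were then too dim to test. Without mouse 6 alone C1qa, C1ra, Anxa5, Pros1 and Mcfd2 did not pass (adjusted p = 0.121, 0.0964, 0.0857, 0.131 and 0.176). On the acute phase score 3 of the complement and 2 of the coagulation genes passed, against 3.31% of all probe sets higher. On the macrophage score 7 and 3 passed, against 5.28%, and all these slopes were positive. Macrophages make C1q and Fgl2, and the lists were made with earlier results of these data known. The counts on the 3 scores are therefore no test of complement or coagulation genes as a set.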

How the data were processed

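Liver RNA of 8 mice was measured on 1 Affymetrix U74Av2 array per mouse, scanned on a Hewlett-Packard GeneArray scanner, per the labels. The deposited table holds 1 linear intensity per probe set (12488) and array. Its mean without the lowest and highest 2% lay between 500.35 and 500.42 on every array, so the deposited intensities were treated as already scaled to a common mean, and no source used here names the software. Array medians ran from 145.6 to 177. All 8 columns matched a sample (0 did not).

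Intensities below 37.2 (percentile 25 of all values) were set to 37.2 and all were converted to log2. No value of a tested gene of the set lay at the floor (0 values). Control probe sets (66) and probe sets with a mean under 165.2 were left out. The annotation gave 1 symbol to 10855 probe sets, several to 396 and none to 1237, and 8251 genes have a probe set of 1 symbol. Variances and slopes were fitted with limma 3.58.1 in R 4.3.3 (trend and robust options, Benjamini-Hochberg threshold 0.05), and correlations were tested two-sided over the 40320 pairings of 8 mice. The scripts were tested on simulated data. The genes, lists, scores and pairs were chosen with earlier results of these data known. Named are all genes of the set that could be read, and the up to 10 other pathway genes of lowest adjusted p, with Pros1 and Mcfd2 added, and bright or wide-ranging genes of the marker lists. With 1 array a mouse, each p-value rests on variation between mice, with array error included, and the number of arrays limits the precision. Alternatives varied the filter, floor, scaling, probe set rule, score, moderation and the mice kept.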

Additional observations from a re-analysis of the deposited data

Results flagged for a closer look

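Each gene was screened on the log2 scale for an extreme mouse whose distance to its neighbour, as a share of the whole range, was above Dixon's 95% limit, and chance alone marks about 1 in 20 genes. Of the 34 genes 2 (5.88%) did so, against 8.69% of all 4869 tested genes. In F7 mouse 7 stood apart (3852, a gap of 0.531 of the range). In Fgb mouse 5 stood apart at the low end (6095, a gap of 0.568). In the second probe set of Plg mouse 5 stood apart at 1606 (a gap of 0.76), and in that mouse the ratio of 5' to 3' signal was 0.375 for Gapdh and 0.0246 for Pcx. The part of RNA ends in these values was not tested.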

How the results depend on the processing

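The calls for C4bp, Serping1 and C9 were lost without mice 6 and 8. The slope of C9 then changed sign. On the macrophage score those of C4bp and Serping1 were 0.39 and 0.50 (adjusted p = 0.672 and 0.564, limma), against 0.32 and 0.30 with all mice. On the interferon score they were lower, 0.14 and 0.16 against 0.21 and 0.19. The acute phase score gave 0.22 and 0.23 against 0.44 and 0.37. Leaving out each mouse in turn, the interferon score called 0 to 4 genes of the set and 140 to 516 probe sets, the macrophage score 1 to 4 genes and 159 to 561 probe sets, the acute phase score 0 to 2 genes and 47 to 306 probe sets, and the pairs 0 to 2 calls. Leaving out mice 6 and 8 together, an alternative chosen after seeing the data, called 0 genes of the set on each score, with 17, 21 and 6 probe sets on the interferon, macrophage and acute phase scores. There C9 had -0.04 on the interferon score, -0.03 on the acute phase score and -0.10 on the macrophage score, and C8g had 0.07 on the acute phase score. On that score Fga ran from -0.25 to 0.04 over the mice left out in turn (0.04 without mouse 4) and Fgg had 0.02 after quantile normalization. With no filter the interferon score called 287 probe sets and 3 genes of the set, and the acute phase score 15 probe sets and 0 genes. Scaling arrays to a common median (shifts of -0.10 to 0.18 on the log2 scale) left 182 probe sets and 0 genes on the acute phase score, limma without its trend and robust options left 238 probe sets and 0 genes there, and quantile normalization gave 375 and 3, against 291 and 1 with the settings reported. Quantile normalization and the mean of all probe sets each left 0 pairs. The chi-square test in place of the F test called 1147 probe sets and 2 genes of the set. For C4bp the slope on the interferon score lay between 0.14 and 0.24 over the 16 alternatives in the same unit and passed in 14. No paired analysis was possible because the mice form 1 group. The cause of these changes was not tested. Where mice were left out, the number of mice was also smaller.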
